A study of Homo sapiens with 15 samples.

Results

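The comparison set HCT116 cells treated with the Apulia extract (AE) against HCT116 cells treated with the Tuscany extract (TE), with 3 RNA-seq libraries for each extract, so that it holds 6 of the 15 libraries of the series. HCT116 is a human colorectal carcinoma line, labelled WT here. Both extracts were freeze-dried oil production waste products of the olive mill, rich in polyphenols such as hydroxytyrosol, and both were given at 0.0154 mg/mL for 72 h, so the doses match by mass and not by the amount of any compound. Untreated HCT116 cells (3 libraries) served as background, and libraries of a Sicily extract (SE) and of pure hydroxytyrosol (HTyr), also 3 each, entered the estimate of the spread. Replicates are marked as biological in the titles, which do not say whether they were separate cultures or days. The gene tests set each difference against the spread between libraries within all 5 groups, and the source of that spread is not known. The members were all genes with at least 1 TPM (a length-corrected transcript level relative to the whole library, which carries no sequencing depth) in at least 3 of the 15 libraries, which left 14899 of 60664 genes. The question was how alike the extracts from these Italian regions were in their effect on the transcriptome, and which genes still differed.

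Plant polyphenols reach gene expression by known routes. Oxidised catechols such as hydroxytyrosol can modify cysteines of KEAP1, the sensor that otherwise has the transcription factor NRF2 degraded, and NRF2 then binds antioxidant response elements beside genes of glutathione, thioredoxin, NADPH and quinone metabolism. Flat aromatic compounds can bind the aryl hydrocarbon receptor (AhR), whose best known target is CYP1A1, a cytochrome P450 of xenobiotic metabolism. NQO1, a quinone reductase, is a target of both.

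The upstream parts of 3 promoters of this kind are shown because their genes were higher with AE than with TE by the tests given below. They are RefSeq sequences on GRCh38.p14, each the 250 bases before the start of the gene in RefSeq, 5′ to 3′ on the gene's strand. The GENCODE spans of GCLM and CYP1A1 given below start upstream of the RefSeq ones, so that the end of these windows lies inside the GENCODE span. In GCLM (chr1:93909431-93909680, minus strand) and TXNRD1 (chr12:104215529-104215778, plus strand) the capitals mark a match to TGACNNNGC, the core letters of the antioxidant response element, read on the reverse strand in GCLM. In CYP1A1 (chr15:74725529-74725778, minus strand) they mark GCGTG, the core letters of the AhR element. TXNRD1 has 2 promoter windows, and the first listed is shown.
GCLM: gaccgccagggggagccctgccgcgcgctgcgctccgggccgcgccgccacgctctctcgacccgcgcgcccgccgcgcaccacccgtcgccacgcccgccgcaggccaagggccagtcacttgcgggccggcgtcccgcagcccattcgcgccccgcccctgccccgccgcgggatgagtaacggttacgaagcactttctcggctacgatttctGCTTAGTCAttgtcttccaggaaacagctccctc
TXNRD1: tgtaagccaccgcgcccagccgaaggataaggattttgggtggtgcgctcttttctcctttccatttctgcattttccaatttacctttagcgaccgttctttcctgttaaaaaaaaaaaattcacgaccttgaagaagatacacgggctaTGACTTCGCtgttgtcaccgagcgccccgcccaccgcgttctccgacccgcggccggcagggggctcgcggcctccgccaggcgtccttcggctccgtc
CYP1A1: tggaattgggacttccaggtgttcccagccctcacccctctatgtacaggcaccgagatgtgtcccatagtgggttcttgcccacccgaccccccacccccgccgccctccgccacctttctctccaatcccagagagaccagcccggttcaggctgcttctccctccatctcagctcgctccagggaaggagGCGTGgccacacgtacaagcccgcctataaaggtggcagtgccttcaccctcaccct
The 3 windows hold 1 match each to the motif marked. The GCLM window also holds 2 matches to GCGTG, neither of which overlaps the marked one.

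The libraries of both extracts carried the markers of an epithelial line. All 5 epithelial markers were at 1 TPM or more in every AE and TE library, against 1 of 10 fibroblast markers, 1 of 13 immune markers and 0 of 7 endothelial markers. The 5 epithelial markers summed to 2482 to 2640.1 TPM with AE, 2728 to 2832 TPM with TE and 4190.3 to 4239.5 TPM untreated, so the sums did not overlap between the extracts, and the part of this in the results below was not tested. The immune marker was CD68, and the other immune markers summed to at most 1.05 TPM in any AE or TE library. The mitochondrially encoded share of TPM was 18.4% ± 0.682 with AE and 19.3% ± 1.98 with TE (SD, n = 3 each; exact permutation test, two-sided, p = 0.7), and the share of cytosolic ribosomal proteins was 24.7% ± 0.959 and 25.2% ± 1.25 (SD, n = 3 each; exact permutation p = 0.5, where the smallest possible p is 0.1). Libraries AE 1 and TE 3 stood apart from the others. In a principal component analysis of the 6 libraries, component 1 (32.8% of the variance) set TE 3 apart and component 2 (19.4%) set AE 1 apart, and neither separated the extracts. The distances between libraries, the calls, the intervals and the medians of the NRF2, AhR and G2/M lists are also given without them.

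Over all genes, an AE library was as close to a TE library as to another AE library. The root mean square difference of log2(TPM + 0.5) between 2 libraries had a median of 0.54 over the 3 pairs of AE libraries, 0.61 over the 3 pairs of TE libraries and 0.51 over the 9 mixed pairs. The mixed pairs ran from 0.49 to 0.65, a range that overlaps those of both extracts. Without AE 1 and TE 3 the 1 remaining pair of AE libraries was at 0.4945, the pair of TE libraries at 0.4774 and the mixed pairs from 0.4921 to 0.5024. The same measure was 0.69 between untreated and AE libraries and 0.67 between untreated and TE libraries (medians of 9 pairs each). Spearman's rho across genes, which are not independent replicates, ran from 0.971 to 0.981 in the mixed pairs, from 0.977 to 0.982 between AE libraries and from 0.974 to 0.982 between TE libraries.

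**Figure D1:**
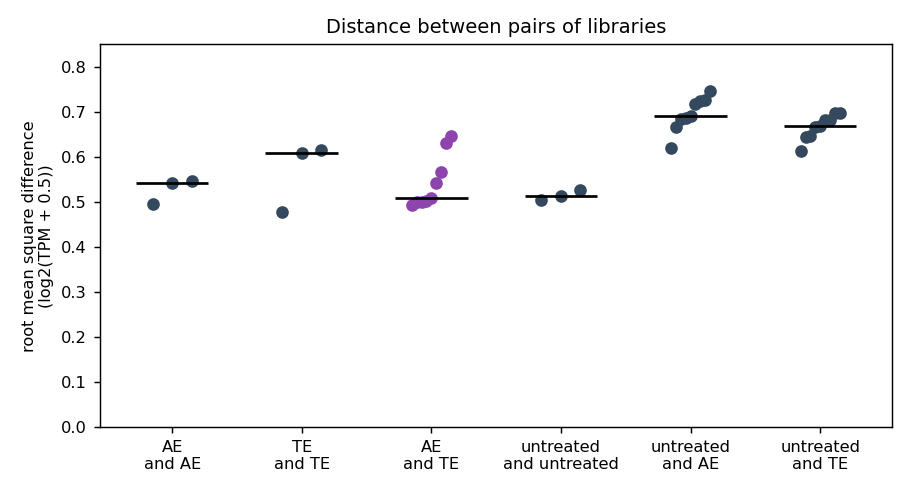
Root mean square difference of log2(TPM + 0.5) over the 14899 genes (vertical axis) for each pair of libraries (points), grouped by the 2 groups the pair comes from, with the median as a line. The AE and TE pairs, with a median of 0.51, lie in the range of pairs from 1 extract, and pairs with an untreated library lie higher.

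Gene by gene, 13 of 14899 genes (0.0873%) were called different between the extracts, by limma's moderated test with an adjusted p (Benjamini-Hochberg) below 0.05 and a difference of more than 1.5-fold in either direction. Of these, 8 genes (0.0537%) were higher with AE and 5 (0.0336%) were lower with AE. Genes called at the same thresholds against untreated cells numbered 1601 rises (10.7%) and 865 falls (5.81%) with AE, and 1112 rises (7.46%) and 784 falls (5.26%) with TE. These comparisons share the 3 untreated libraries. At the adjusted p alone, 35 genes (0.235%) differed between AE and TE, of which 28 (0.188%) were higher with AE and 7 (0.047%) lower. Without any adjustment, 1764 genes had p under 0.05. The calls in each direction depended on the scaling, with 8 higher and 5 lower on the deposited TPM. Median-ratio scaling gave 5 and 7, and quantile normalization 6 and 7. Of the 13 calls, 10 and 11 were kept in the same direction by these scalings, and the others were no longer called.

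Alikeness was measured by the interval of each difference, since a missed threshold does not show it. The 95% interval of the difference lay wholly within 1.5-fold in either direction for 10698 genes (71.8%), and so for 9290 of 10402 genes (89.3%) with a mean of at least 5 TPM and for 2329 of 2418 genes (96.3%) with at least 50 TPM. Without AE 1 and TE 3, with fewer libraries behind each interval, the first of these counts was 9199. Of the 4201 genes whose interval reached outside, 3089 had a mean below 5 TPM. The absolute difference had a median of 0.12 and a 95th percentile of 0.54, beside a median standard error of 0.13. The differences were not centred on 0, with a median of 0.05 and 61.8% of genes above 0. The 3 AE libraries were all above the 3 TE libraries for 2063 genes (13.8%) and all below them for 761 (5.11%), which makes 2824 genes (19.0%) with no overlap.

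**Figure D2:**
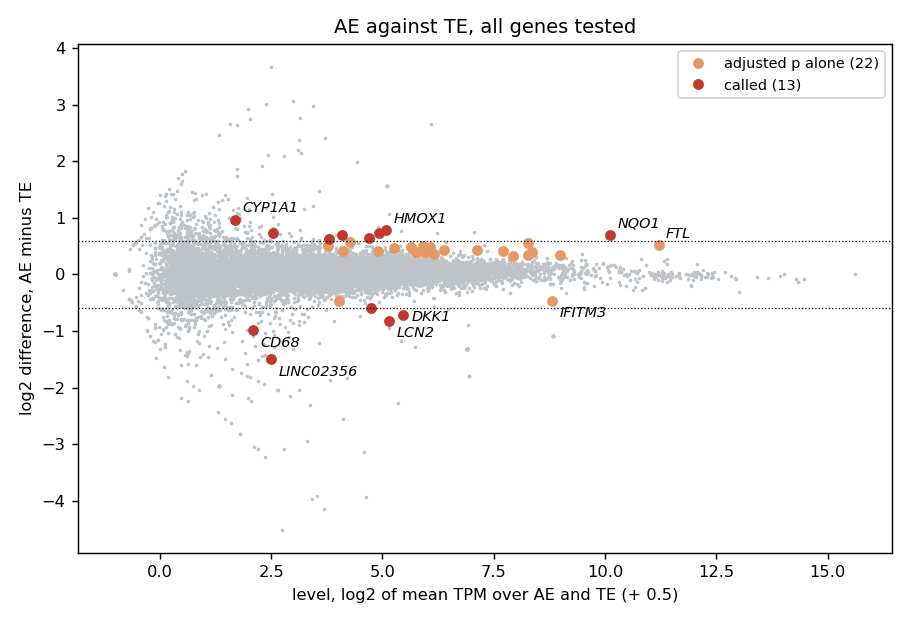
Log2 difference AE minus TE (vertical axis) against level, as log2 of the mean TPM plus 0.5 (horizontal axis), for 14899 genes (grey), the 13 called genes (red) and the 22 that passed the adjusted p alone (orange); dotted lines mark 1.5-fold in either direction. The spread of the differences narrows with level, NQO1 is the called gene at the highest level, and large differences at low levels were mostly not called.

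Of the 8 genes higher with AE, 5 belonged to the list of NRF2 targets and thiol antioxidants, namely NQO1, HMOX1, GCLM, OSGIN1 and PIR. NQO1 (ENSG00000181019, chr16:69706996-69726668), which reduces quinones with NADPH, was at 1384, 1317 and 1399.7 TPM with AE and at 866, 855 and 803 TPM with TE, against 327, 328 and 316 TPM untreated. The groups did not overlap, and the AE minus TE difference was 0.70 ± 0.05 on the log2 scale (SE; limma adjusted p = 1.57e-05), or 1.63-fold. HMOX1 (ENSG00000100292, chr22:35380361-35394214) encodes heme oxygenase 1, which releases iron, carbon monoxide and biliverdin from heme. It was at 44.8, 44.1 and 38.0 TPM with AE and 25.01, 23.8 and 24.5 TPM with TE, against 16.8, 15.3 and 14.2 TPM untreated, a difference between extracts of 0.78 ± 0.09 (SE; limma adjusted p = 0.00255). Every AE library was thus above every TE library, and every TE library above every untreated one, for both genes.

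GCLM (ENSG00000023909, chr1:93885199-93909456) encodes the modifier subunit of the enzyme that limits glutathione synthesis. Its levels were 36.2, 37.5 and 38.0 TPM with AE, 25.7, 20.5 and 20.99 TPM with TE and 16.6, 11.7 and 12.8 TPM untreated (log2 difference 0.73 ± 0.12, limma adjusted p = 0.0283). PIR (ENSG00000087842, chrX:15384799-15493564) encodes pirin, an iron-binding nuclear protein, and stood at 33.0, 28.01 and 32.0 TPM with AE, 21.1, 19.4 and 18.1 TPM with TE and 15.9, 13.2 and 15.6 TPM untreated (0.65 ± 0.09, limma adjusted p = 0.00663). For both, all 3 AE libraries were above all 3 TE libraries. OSGIN1 (ENSG00000140961, chr16:83931311-83966332), an oxidative stress induced growth inhibitor, had another order. It was at 20.7, 19.4 and 21.9 TPM with AE and 12.7, 11.8 and 13.4 TPM with TE (0.69 ± 0.13, limma adjusted p = 0.0422), but at 28.1, 17.6 and 22.8 TPM in untreated cells. Against untreated cells OSGIN1 fell by 0.81 with TE (limma adjusted p = 0.000257), while with AE the difference was -0.12 (limma adjusted p = 0.49). Its span overlaps that of MLYCD on the same strand.

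CYP1A1 (ENSG00000140465, chr15:74719542-74725536) was low in all libraries, at 3.56, 3.67 and 4.11 TPM with AE, 1.69, 2.04 and 1.38 TPM with TE and 0.39, 0.81 and 0.60 TPM untreated. AE and TE did not overlap, and the difference was 0.97 ± 0.17 (SE; limma adjusted p = 0.0337). It rose against untreated cells with both extracts, by 1.98 with AE (limma adjusted p = 1.13e-06) and 1.01 with TE (limma adjusted p = 0.00047). The added constant of 0.5 TPM makes these log2 values smaller than the change in TPM itself, and CYP1A1 lies below the 5 TPM asked of named genes, being named for its list. The remaining genes higher with AE were CKAP2L and SPIN2B. CKAP2L (ENSG00000169607, chr2:112736349-112764664), a mitotic spindle protein, was at 17.3, 14.8 and 16.95 TPM with AE and 10.5, 10.6 and 10.3 TPM with TE (0.62 ± 0.10, limma adjusted p = 0.0164). SPIN2B (ENSG00000186787, chrX:57118551-57121548), which encodes a member of the spindlin family, was at 6.55, 6.36 and 7.42 TPM with AE and 3.27, 4.35 and 4.16 TPM with TE (0.72 ± 0.13, limma adjusted p = 0.0422). Its reads can be shared with the near-identical paralog SPIN2A, so its value is uncertain.

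The 5 genes lower with AE shared no list. LCN2 (ENSG00000148346, chr9:128149071-128153453), which encodes lipocalin 2, a secreted binder of iron siderophores, was at 24.0, 28.9 and 23.1 TPM with AE and 48.4, 44.8 and 41.7 TPM with TE, against 59.2, 56.0 and 52.6 TPM untreated. The difference was -0.82 ± 0.10 (SE; limma adjusted p = 0.00255), with no overlap between the extracts. DKK1 (ENSG00000107984, chr10:52314281-52318042), a secreted WNT antagonist, was at 40.8, 28.5 and 29.7 TPM with AE, 51.1, 56.7 and 54.5 TPM with TE and 218, 220.5 and 202 TPM untreated. It was thus far below untreated cells with both extracts, by -2.69 with AE and -1.97 with TE on the log2 scale, and the difference between the extracts was -0.72 ± 0.11 (limma adjusted p = 0.0123). The span of DKK1 overlaps the antisense gene PRKG1-AS1, which was also measured.

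KIAA0040 (ENSG00000235750, chr1:175156986-175192999), a gene of poorly known function, was at 22.2, 19.6 and 20.96 TPM with AE and 32.0, 33.9 and 29.3 TPM with TE, and at -0.59 ± 0.08 (limma adjusted p = 0.00617) it was the called gene nearest to the fold threshold. CD68 (ENSG00000129226, chr17:7579491-7582111), a lysosomal glycoprotein known as a macrophage marker, was at 2.88, 1.58 and 2.74 TPM with AE, 4.58, 5.95 and 4.95 TPM with TE and 16.4, 17.3 and 16.8 TPM untreated (AE minus TE -0.99 ± 0.18, limma adjusted p = 0.0422). Its span overlaps 2 measured lncRNA genes. LINC02356 (ENSG00000257595, chr12:111369261-111403310), the only non-coding gene of the 13, was at 1.95, 3.66 and 1.92 TPM with AE and 7.43, 8.26 and 7.57 TPM with TE. This was the largest difference of the 13, at -1.50 ± 0.24 (limma adjusted p = 0.0177), and the untreated libraries, at 5.90, 3.16 and 6.41 TPM, overlapped those of AE and lay below those of TE.

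**Figure D3:**
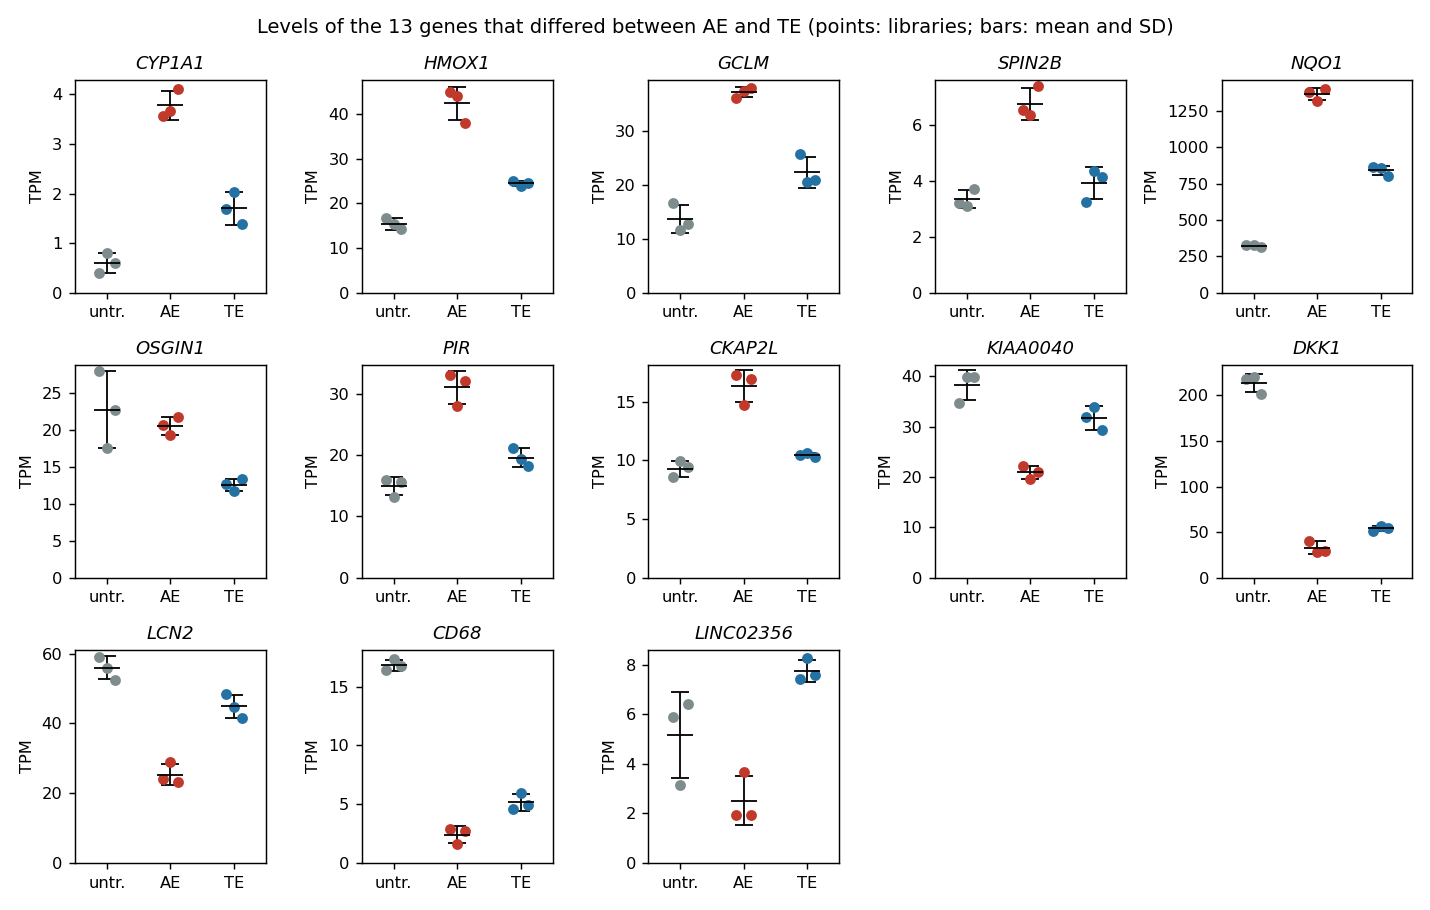
TPM (vertical axis, from 0) of the 13 called genes in the untreated, AE and TE libraries (points), with the mean and SD of the 3 libraries of each group. In each panel the AE and TE points do not overlap; OSGIN1 is the gene higher with AE whose untreated mean lies above both extracts, and DKK1 and CD68 lie far below their untreated level with both.

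Most calls did not pass in every fit that left out 1 library, and each such fit has fewer libraries behind it. Leaving out 1 AE or TE library at a time left 4 to 8 calls, with 6 without AE 1, 8 without AE 2, 4 without AE 3, 8 without TE 1, 8 without TE 2 and 4 without TE 3. NQO1, HMOX1 and LCN2 were called in all 6 of these fits, with differences from 0.67 to 0.73, from 0.73 to 0.85 and from -0.92 to -0.76. PIR was called in 4 of 6, KIAA0040 in 3, DKK1 in 2, GCLM, CYP1A1, CKAP2L and LINC02356 in 1 each, and OSGIN1, SPIN2B and CD68 in 0, each keeping its direction in all 6. The differences of OSGIN1, SPIN2B and CD68 ran from 0.645 to 0.732, from 0.611 to 0.793 and from -1.12 to -0.767. Without both AE 1 and TE 3, 4 genes were called, NQO1 (0.66), LCN2 (-0.84), DKK1 (-0.88) and KIAA0040 (-0.69). HMOX1 was then at 0.73 with a limma adjusted p of 0.0585, GCLM at 0.71 with 0.225 and CYP1A1 at 0.90 with 0.227.

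The NRF2 list had 40 genes, of which 36 were measured. Of these, 5 were called higher with AE (0.0537% of all genes), 0 were called lower, and 12 passed the adjusted p in the same direction (0.188% of all genes). The median log2 difference was 0.32, beside 0.05 over all genes, and 34 of 36 members lay above 0, beside 61.8% of all genes. The 3 AE libraries were all above the 3 TE libraries in 27 of 36 members, beside 13.8% of all genes. Without AE 1 and TE 3 the median was 0.36, and it ran from 0.32 to 0.37 when 1 library was left out. Against untreated cells 16 members rose with AE (10.7% of all genes), and 7 rose and 1 fell with TE (7.46% and 5.26% of all genes).

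Members that passed the adjusted p below the fold threshold came from several branches of this response. In the thioredoxin branch, TXNRD1, thioredoxin reductase 1, was at 379, 354 and 359 TPM with AE and 249, 257 and 239 TPM with TE (0.55 ± 0.06, limma adjusted p = 0.00216). The untreated libraries were at 349, 317 and 317 TPM, so that TXNRD1 lay below untreated with TE (-0.40) and slightly above it with AE (0.15). In the iron branch, FTL, the ferritin light chain, was at 2711, 2805 and 2804 TPM with AE and 1954, 1929 and 1925 TPM with TE (0.52 ± 0.07, limma adjusted p = 0.00617). Reads of FTL can be shared with its processed pseudogenes. With TE it stood 0.03 above untreated cells on the log2 scale, and with AE 0.55 above.

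The glutathione branch gave SLC7A11, the cystine importer, at 67.9, 73.5 and 70.0 TPM with AE and 50.1, 47.9 and 50.1 TPM with TE (0.51 ± 0.09, limma adjusted p = 0.0465), and GSR, glutathione reductase, at 79.4, 75.6 and 84.7 against 61.5, 63.9 and 60.7 TPM (0.36 ± 0.06, limma adjusted p = 0.0158). GCLC, the catalytic partner of GCLM, had a difference of 0.58 and did not pass. The NADPH branch gave ME1, malic enzyme 1 (0.46 ± 0.07), and TKT, transketolase (0.35 ± 0.06), with limma adjusted p-values of 0.0164 and 0.0283. For ME1 the levels were 41.4, 45.2 and 44.7 TPM with AE and 33.5, 29.6 and 31.7 TPM with TE. None of these overlapped between the extracts. AKR1C3 and TRIM16L had larger estimates, 0.91 and 0.83, and did not pass.

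**Figure D4:**
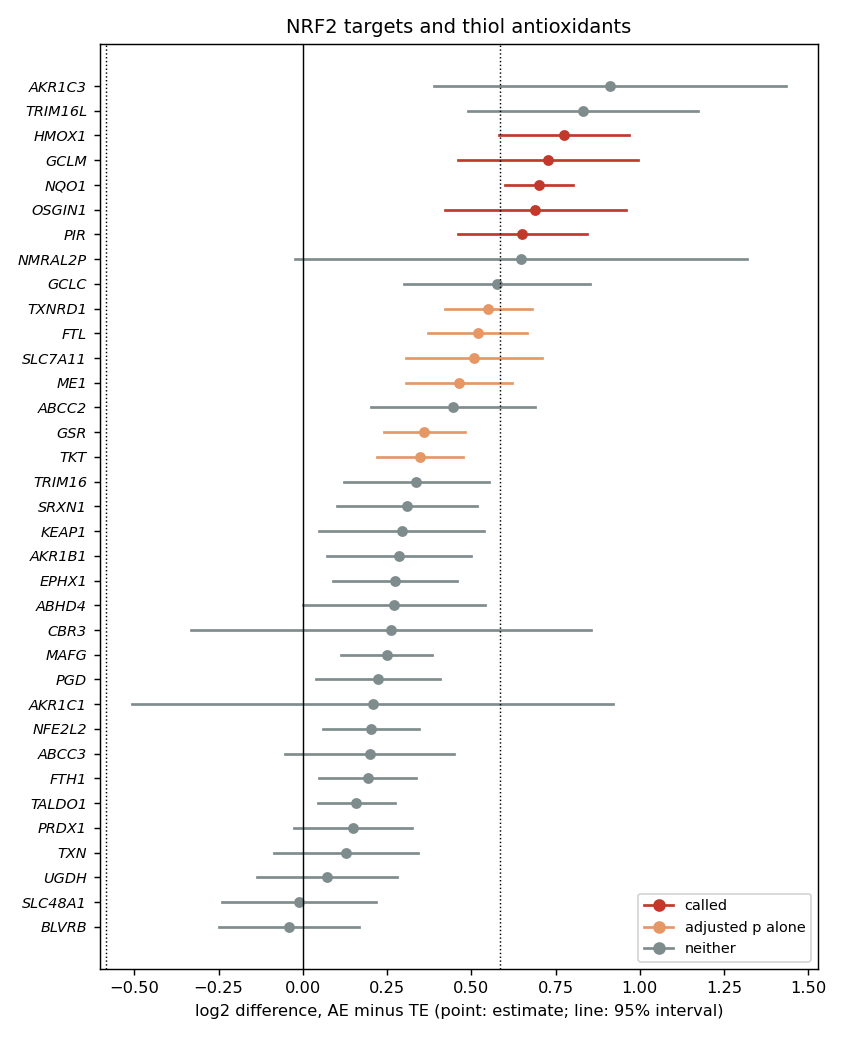
Log2 difference AE minus TE (horizontal axis; point, estimate; line, 95% interval) for 35 measured genes of the NRF2 list, in order of their difference; red genes were called, orange genes passed the adjusted p alone, and dotted lines mark 1.5-fold in either direction. Points lie to the right of 0 for 33 of the 35 genes shown.

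The AhR list had 8 measured genes of 11, of which NQO1, also counted in the NRF2 list, and CYP1A1 were called higher with AE and 0 lower, beside 0.0537% of all genes called higher. Its median difference was 0.43, beside 0.05 over all genes, and 8 of 8 members lay above 0, beside 61.8% of all genes. CYP1B1, another AhR-driven cytochrome P450, was at 1.05, 1.17 and 1.22 TPM with AE and 0.69, 0.75 and 0.66 TPM with TE (0.46 ± 0.16, limma adjusted p = 0.267). AHRR, the repressor of the receptor, was at 5.37, 4.59 and 4.55 TPM with AE and 2.52, 2.04 and 2.40 TPM with TE (0.92 ± 0.37, limma adjusted p = 0.337). Neither overlapped between the extracts and neither passed. The receptor itself, AHR, gave 0.14 with overlapping libraries. Without AE 1 and TE 3 the list's median was 0.32.

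Of the 71 measured genes of G2/M and mitosis, 0 were called and 3 passed the adjusted p alone, each higher with AE, beside 0.188% of all genes. The estimates of all 71 lay above 0, beside 61.8% of all genes, and 54 had every AE library above every TE library, beside 13.8%. The median was 0.30, beside 0.05 over all genes, and the members ran from 0.05 for CDC25B, a phosphatase of mitotic entry, whose libraries overlapped, to 0.62 for KIF15, a spindle kinesin that did not pass (limma adjusted p = 0.0897). CCNB1, the cyclin of entry into mitosis, was at 149, 166 and 160.4 TPM with AE and 119.9, 111 and 122 TPM with TE (0.43 ± 0.06, limma adjusted p = 0.00617), against 49.1, 53.6 and 53.4 TPM untreated. TOP2A, the topoisomerase that untangles sister chromatids, was at 56.0, 55.8 and 60.9 against 40.5, 41.7 and 40.4 TPM (0.49 ± 0.08, limma adjusted p = 0.0149), and KIF4A, a chromosome-bound kinesin, at 19.5, 18.4 and 20.3 against 14.3, 14.8 and 13.9 TPM (0.42 ± 0.08, limma adjusted p = 0.0427). Against untreated cells 66 members rose with AE and 44 with TE, beside 10.7% and 7.46% of all genes, with medians of 0.93 and 0.64, beside 0.09 and 0.05 over all genes. The list's median between the extracts was 0.26 without AE 1 and TE 3, and 0.25 with median-ratio scaling. In bulk RNA a larger share of cells in a phase and more RNA per cell cannot be told apart.

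Of the 62 genes of DNA replication and E2F targets 0 were called and 0 passed the adjusted p in limma's test. Over all genes these shares were 0.0873% and 0.235%. The list's median was 0.18, and 56 members lay above 0, beside 61.8% of all genes. All AE libraries were above all TE libraries for 27 members and below them for 0, beside 13.8% and 5.11% of all genes. RRM2, a subunit of ribonucleotide reductase, had the smallest adjusted p of the list (0.33 ± 0.07, limma adjusted p = 0.0889), ahead of PRIM1, a DNA primase subunit (0.34 ± 0.08, limma adjusted p = 0.103). Against untreated cells 59 members rose with AE and 51 with TE, beside 10.7% and 7.46% of all genes, with medians of 1.12 and 0.90.

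Among the other genes that passed the adjusted p alone and were higher with AE were HMGB2, a chromatin protein of dividing cells (0.39), FANCI, of DNA crosslink repair (0.39), EREG, a ligand of the epidermal growth factor receptor (0.32), and SQSTM1, the autophagy receptor p62 (0.34). DHRS3 (0.57), SRSF1 (0.41) and DANCR (0.40) were also among them. EREG was at 268, 271 and 273 TPM with AE and 212, 223 and 216 TPM with TE. IFITM3, an interferon-induced membrane protein, and CERCAM, an adhesion-related gene, were lower with AE. IFITM3 was at 367, 371 and 396 TPM with AE, 544, 518 and 509 TPM with TE and 628, 643 and 677 TPM untreated (-0.47 ± 0.05, limma adjusted p = 0.00216). Its reads can be shared with the close paralogs IFITM1 and IFITM2. It was the 1 member of the interferon list to pass, out of 33 measured, beside 0.047% of all genes passing lower with AE. The list's median was -0.09 with 12 members above 0, beside 61.8% of all genes. All AE libraries were below all TE libraries for 10 members and above them for 0, beside 5.11% and 13.8% of all genes. IFITM1 was at -1.02 and did not pass (limma adjusted p = 0.124). The list of iron handling held called genes in both directions, HMOX1 higher and LCN2 lower with AE.

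**Figure D5:**
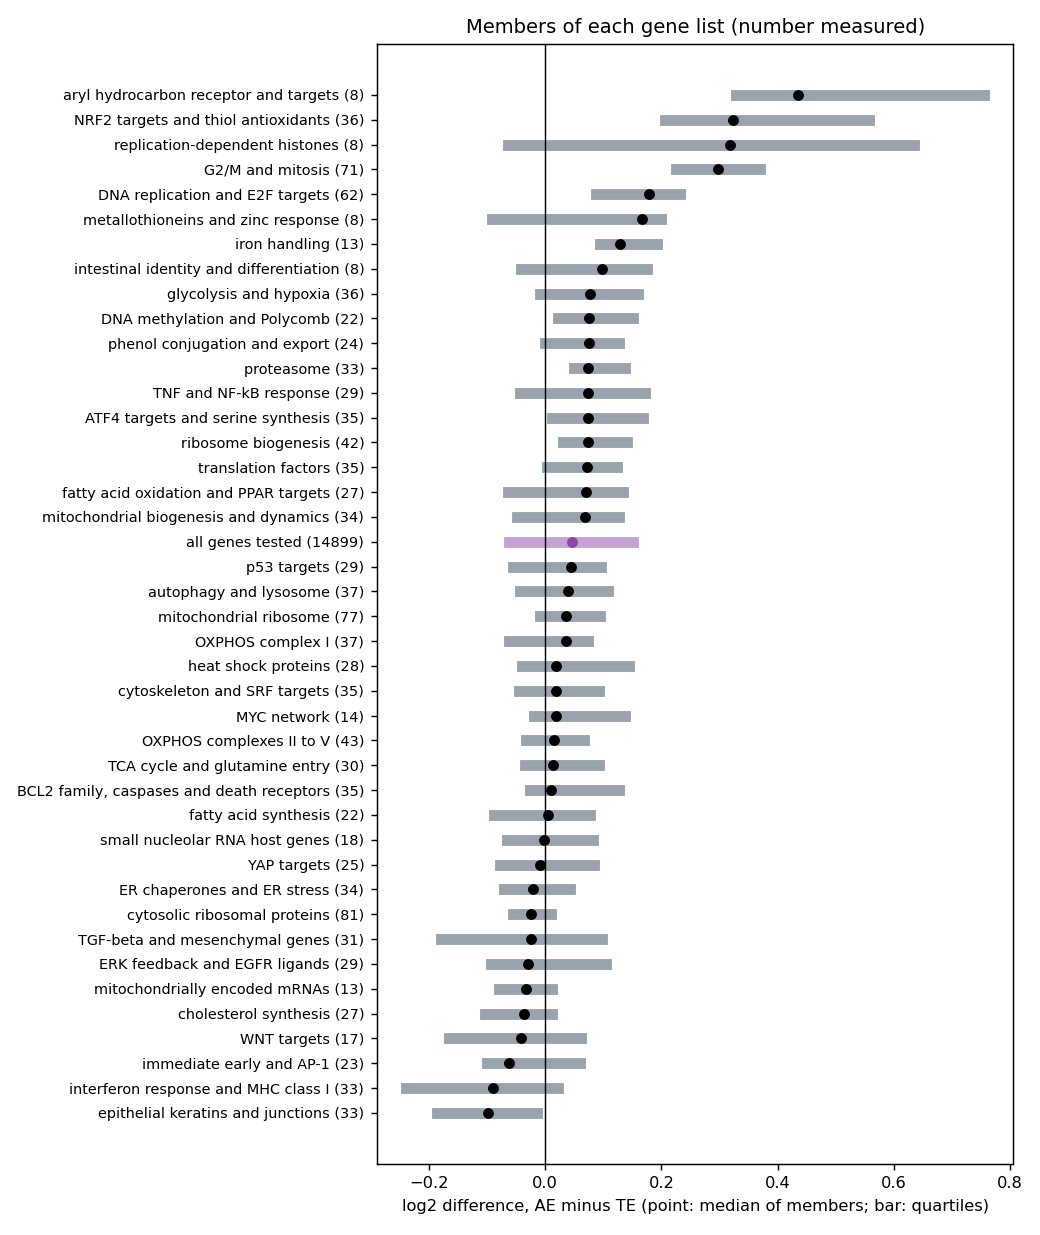
Log2 difference AE minus TE (horizontal axis) over the measured members of each gene list (point, median; bar, quartiles), with the number of members in brackets and all genes tested in purple. The AhR, NRF2, histone and G2/M lists have medians of 0.43, 0.32, 0.32 and 0.30, beside 0.05 for all genes. The histone list has 8 measured members of 41, 0 of them called and 0 without overlap between the extracts. Its members ran from -0.57 to 0.87, with 5 above 0, so its median is uncertain.

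For the genes of respiration and mitochondria, the theme of the study, the counts of intervals within 1.5-fold are read against 71.8% of all genes, 89.3% of those with at least 5 TPM and 96.3% of those with at least 50 TPM. Among the 37 nuclear genes of OXPHOS complex I, 0 were called, the median was 0.04, and the interval lay within 1.5-fold for 36. The smallest adjusted p there belonged to NDUFA3, an accessory subunit, at 74.99 ± 4.83 TPM with AE and 93.3 ± 7.18 TPM with TE (SD, n = 3 each; -0.31 ± 0.07 on the log2 scale, limma adjusted p = 0.106). Of complexes II to V, 41 of 43 members had such an interval and the median was 0.01. The same held for 13 of 13 mitochondrially encoded mRNAs (median -0.03), 75 of 77 genes of the mitochondrial ribosome (0.04) and 34 of 34 genes of mitochondrial biogenesis and dynamics (0.07). None of these lists held a called gene, where 0.0873% of all genes were called, and their limma adjusted p-values were over 0.05 throughout.

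Outside the respiratory chain, the genes the study followed at the protein level were taken as mRNA in both extracts. PPARG was added, as the receptor the study acted on with a ligand and an inhibitor. TFAM, the mitochondrial transcription factor, was at 44.02, 40.2 and 41.6 TPM with AE and 34.3, 39.9 and 36.7 TPM with TE, and 25.6 to 30.4 TPM untreated. The difference between the extracts was 0.18 with a 95% interval from -0.03 to 0.40. PPARG, a nuclear receptor of lipid metabolism, was at 23.0, 22.8 and 18.5 TPM with AE and 25.6, 23.5 and 26.1 TPM with TE (-0.22, interval -0.42 to -0.03, limma adjusted p = 0.341). For the outer membrane import receptor TOMM20 the interval ran from -0.11 to 0.24, for the mitofusins MFN1 and MFN2 from -0.09 to 0.22 and from -0.05 to 0.25, for the fission factor MFF from 0.01 to 0.25, and for the transcription factor FOXJ3 from -0.03 to 0.22. The interval lay within 1.5-fold for each of these 7 genes. Against untreated cells, the log2 differences with AE and TE were 0.59 and 0.41 for TFAM and 0.23 and 0.16 for MFN1. They were -0.78 and -0.56 for PPARG, -0.26 and -0.35 for FOXJ3, -0.07 and -0.14 for TOMM20, and -0.06 and -0.19 for MFF. MFN2 was at 0.03 and -0.07. With AE, TFAM was called higher and PPARG lower, and no other of these was called with either extract. The study reported higher protein of FOXJ3, TOMM20, PPARGC1A, TFAM, MFN1 and MFN2 in treated HCT116 cells, and lower MFF protein. Protein was not measured in these libraries. PPARGC1A, the coactivator PGC-1α, was listed at 0 in all 9 AE, TE and untreated libraries except AE 3, with 0.05 TPM, and was not tested.

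Other housekeeping groups gave shares of the same kind, to be read against the same background. The interval lay within 1.5-fold for 80 of 81 cytosolic ribosomal proteins (median -0.02), 33 of 33 proteasome genes (0.07), 42 of 42 ribosome biogenesis genes (0.07), 35 of 35 translation factors (0.07), 34 of 34 genes of endoplasmic reticulum chaperones and stress (-0.02), 30 of 30 genes of the TCA cycle (0.01) and 27 of 27 genes of cholesterol synthesis (-0.04). None of these lists held a called gene, where 0.0873% of all genes were called. All AE libraries were above all TE libraries for 10 of 33 proteasome genes, 15 of 42 ribosome biogenesis genes and 10 of 35 translation factors. In these lists 0 genes lay wholly below. By the same measure cytosolic ribosomal proteins had 2 above and 6 below, and chaperone genes 3 and 4. TCA cycle genes had 4 and 3, and cholesterol synthesis genes 1 and 2. Epithelial keratin and junction genes had a median of -0.10, with 8 of 33 members above 0, beside 61.8% of all genes, and 0 called. Of these, 2 lay wholly above and 9 wholly below, beside 13.8% and 5.11% of all genes.

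The promoter letters shown above were counted in all windows of 250 bases before to 50 after a gene's start, on both strands. TGACNNNGC was present for 3 of 7 called genes higher with AE that have a promoter in the table, GCLM, PIR and SPIN2B, for 1 of 5 called genes lower with AE, CD68, and for 19.6% of the 10543 tested genes with a promoter. Of the 26 genes of the NRF2 list with a promoter, 7 held it (26.9%). GCGTG was present for 6 of the 7 called genes higher with AE, CYP1A1, NQO1 and GCLM among them, for 2 of the 5 lower with AE, and for 58.7% of all tested genes. The NQO1 window holds GCGTG and no TGACNNNGC. A match describes letters in this window and is not a measured binding site.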

How the data were processed

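HCT116 RNA was sequenced after poly(A) capture (TruSeq stranded mRNA). Per the study's methods, the authors clipped adapters (Scythe), trimmed reads (Sickle), aligned with STAR on GRCh38 and ran RSEM with the Ensembl 104 annotation. Submitters' processing notes list STAR, RSEM and GRCh38, without versions. The deposited files hold TPM from RSEM, 1 column a library, which the authors rounded to 2 decimals and did not scale across libraries. Since TPM do not keep depth, counting error and depth are unknown here.

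Groups came from the sample descriptions. The codes in the sample titles cross Tuscany and Sicily. Of the genes of the supplementary sheet held here, all 1539 matched the column taken for each library, and at most 21 matched any other column. Symbols and spans are from GENCODE 44 (60463 of 60664 identifiers).

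Values were analysed as log2(TPM + 0.5). A count model could not be used on TPM, so limma 3.58.1 (R 4.3.3) was fitted to the 14899 genes, with 5 group means in 15 libraries, a mean-variance trend, 10 residual and 3.42 prior degrees of freedom, two-sided tests and Benjamini-Hochberg adjustment. Intervals are 95%, per gene and not adjusted. Shares of TPM were compared by exact permutation tests. Tables and plots were made with Python 3.11.15, numpy 2.4.6, pandas 2.3.3, scipy 1.17.1 and matplotlib 3.10.9.

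Named genes were the 15 largest differences in each direction among called genes with no overlap and at least 5 TPM in the higher group, the 3 smallest adjusted p-values of a list with up to 2 called against its majority, and the genes the study followed. CDC25B, KIF15, AKR1C3, TRIM16L, GCLC, AHRR, AHR, and the genes that passed the adjusted p alone, were named after their values were seen. The genes, lists and tests were chosen with earlier results of these data known. Values of some genes are not reported here. Alternatives covered the constant, filters, scaling, left-out libraries, fits and thresholds.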

Additional observations from a re-analysis of the deposited data

How the results depend on the processing

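The 13 calls (8 higher and 5 lower with AE) were few, and several lay near the adjusted p or fold threshold. Their number moved with most choices while the direction of the called genes did not, except where noted. Without a filter on low values 7 genes were called (4 higher, 3 lower) of the larger number tested, and 19370 intervals lay within the fold threshold. With only AE and TE libraries in the fit 1 gene was called (1 higher, 0 lower), which was NQO1. Array weights gave 24 calls (15 higher, 9 lower), no fold threshold 35 (28 higher), and a log2 difference over 1 gave 1 (0 higher, 1 lower), which was LINC02356. A test against the fold threshold itself (limma's treat) gave 0 calls (0 higher, 0 lower), with 39 genes at an unadjusted p under 0.05. Median-ratio scaling gave 5 higher and 7 lower. Among choices made after seeing the data, removing a GC and length trend gave 3 lower, the largest residual component as a covariate gave 5 higher, and leaving out AE 1 and TE 3 gave 4 calls (1 higher, 3 lower). Leaving out 1 library gave 4 to 8 calls, 2 to 6 higher and 2 to 3 lower. The cause was not tested.

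Libraries with the same number deviated from their group means with correlations of -0.19, 0.01 and -0.14 over all genes. Above 10 TPM these were -0.25, -0.36 and 0.06, with 0.44 for AE 1 with TE 2. The main fit did not pair libraries by number. On the largest residual component, AE 1, 2 and 3 lay at -0.337, 0.181 and 0.156, near SE 1, 2 and 3 (-0.295, 0.155 and 0.14). TE 1, 2 and 3 lay at 0.282, 0.192 and -0.474, near HTyr 1, 2 and 3 (0.254, 0.227 and -0.481). Such structure was not modelled in the main fit, and its cause was not tested. A fit with a replicate block gave 12 calls (8 higher, 4 lower), among them 10 of the 13, without GCLM, CD68 and SPIN2B. Beside the fits without 1 library, NQO1 was called in all 14 alternatives that kept the thresholds and the TE columns.

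The title codes would take as TE the columns used here as SE, so this alternative sets AE against those columns. It gave 703 calls (414 higher, 289 lower). For the genes held here, the study's supplementary sheet matches the columns taken as TE above. The log2 differences then reversed to -0.35 for GCLM, -0.45 for PIR, -2.32 for CYP1A1, 2.87 for LCN2, -0.041 for NQO1, 0.30 for KIAA0040, -0.069 for ME1, -0.32 for KIF4A, -0.31 for GSR, -0.00069 for EREG, -0.62 for TOP2A, -0.59 for CCNB1, -0.42 for SRSF1, -0.36 for FANCI, 0.23 for IFITM3, -0.26 for DHRS3, -0.10 for TKT, -0.29 for HMGB2, 0.11 for CERCAM, -0.50 for DANCR, -0.34 for TFAM, 0.031 for PPARG, -0.052 for MFF and -0.044 for MFN1. MFN1, which was not called, ran from -2.2e-05, without AE 3, to 0.119 when 1 library was left out, and reversed to -0.024 with the GC and length trend removed.

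TPM hold no counts, so the precision at low levels is limited by rounding and unknown depth, and the interval reached past 1.5-fold for 3089 genes with a mean below 5 TPM.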
